A study of Homo sapiens with 12 samples.

Results

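The OAS family and the double-stranded RNA sensors are 9 genes whose proteins recognise double-stranded RNA inside a cell: OAS1, OAS2, OAS3, OASL, IFIH1, RIGI, DHX58, EIF2AK2 and TLR3. They were taken by gene symbol from a table of 70116 gene identifiers, and the set was chosen by the levels of OASL and OAS2, which were known to be higher in 2 of the knockdowns than in the control. All 9 were found in the table, and 8 of them were among the 16197 genes with enough reads to be tested; OAS1, with 1 to 17 counts in a library, was not.

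The RNA came from MiaPaCa-2, an established human cell line from a pancreatic carcinoma, transfected with a small interfering RNA (siRNA), a short duplex that directs the destruction of a matching mRNA. The 4 groups were a control siRNA (siControl), an siRNA against SLC25A1 (siSLC25A1), which encodes the mitochondrial citrate carrier, an siRNA against ACLY (siACLY), which encodes the enzyme that makes acetyl-CoA from citrate outside the mitochondria, and an siRNA against ACO1 (siACO1), which encodes cytosolic aconitase. Each group had 3 libraries of poly(A) RNA, all groups received an siRNA, and the labels name neither the time after transfection nor how many siRNA sequences were used for a gene. Nothing in the labels says whether the 3 libraries of a group came from separate cultures, so the p-values measure the spread between these libraries, which may be technical.

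The libraries held 24159424 to 43792811 counts, and the common biological coefficient of variation was 4.89%. The targeted mRNA was left at 8.75% of control for SLC25A1 in siSLC25A1, 7.24% for ACLY in siACLY and 3.72% for ACO1 in siACO1 (edgeR quasi-likelihood test, adjusted p = 1.52e-26, 4.15e-32 and 2.43e-25). The keratin KRT8 and the mesenchymal filament gene VIM were abundant in all groups, whereas the epithelial markers EPCAM and CDH1 were at or near 0 in all groups. The leukocyte list of 8 markers summed to 1.37 to 2.25 CPM (counts scaled to a common library total) in siControl, 2.28 to 2.76 in siSLC25A1, 2.697 to 3.08 in siACLY and 2.89 to 3.26 in siACO1, mostly from LYZ and CD14, while the defining leukocyte genes PTPRC and CD3E had no count in any library. The fibroblast list of 5 markers, nearly all of it COL1A2, summed to 784.0 to 894.9 CPM in the first 3 groups and 1546 to 1592 in siACO1, with LUM at 0, and the list of 7 line markers to 7049 to 8831 and 5605 to 6081. Their part in the results for siACO1 was not tested. The library siACO1 replicate 3 lay farthest from the others of its group, with an SD over genes of 0.359 in its log2 CPM difference from them, against 0.283 to 0.352 in the other libraries, and the members' differences from siControl in siACO1 are therefore given with and without it. Of the list genes followed further on, 66 were called in siACO1 with it and 63 without it.

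Double-stranded RNA is rare in the cytosol of a healthy cell and is treated as a sign of viral infection or of misplaced cellular RNA. RIG-I (encoded by RIGI) and MDA5 (IFIH1) are helicases that bind it and signal through the adaptor MAVS to kinases and transcription factors that switch on interferon genes; LGP2 (DHX58), which lacks their signalling domains, modulates both, and TLR3 senses double-stranded RNA in endosomes. OAS1, OAS2 and OAS3 respond to double-stranded RNA by making 2′-5′-linked oligoadenylates, a second messenger that leads to the breakdown of RNA, and PKR (EIF2AK2) phosphorylates the translation factor eIF2α. OASL has lost the synthetase activity and is known as a helper of RIG-I. All of these genes can themselves be induced by interferon, and several by the transcription factor IRF3 without it.

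All 9 are protein-coding genes. On GRCh38, OAS1 (ENSG00000089127, chr12:112906777-112933222), OAS3 (ENSG00000111331, chr12:112938352-112973249) and OAS2 (ENSG00000111335, chr12:112978395-113011723) lie in a row on the plus strand of chromosome 12, separated by 5.13 and 5.15 kb. OASL (ENSG00000135114, chr12:121019111-121039242, minus strand) lies 8.01 Mb further along the same chromosome. IFIH1 (ENSG00000115267, chr2:162267079-162318703) and EIF2AK2 (ENSG00000055332, chr2:37099210-37157065) are on the minus strand of chromosome 2. RIGI (ENSG00000107201, chr9:32455705-32526324, minus strand), DHX58 (ENSG00000108771, chr17:42101404-42112733, minus strand) and TLR3 (ENSG00000164342, chr4:186069152-186088069, plus strand) each stand on a chromosome of their own. RIGI lies 0.936 kb from ACO1, the gene targeted in siACO1. Exons of other genes covered 1.86% of the exon bases of OAS1 and 4.05% of those of EIF2AK2 and none of the other 7, and how the reads were assigned by strand is not given in the sources used here.

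Promoter sequences were available for 6 members, from the RefSeq table of promoters on GRCh38.p14 (250 bases before the gene start to 50 after it). The table was searched on both strands for the core of the interferon-stimulated response element (ISRE), a site through which interferon induces genes, written as 2 copies of GAAA with 2 bases between them. The core stood in 4 of the 6 members' promoters (OAS3, IFIH1, EIF2AK2 and TLR3), against 3.57% of the 35116 promoters in the table. A variant with 1 base between the copies, looked for only after the members' sequences had been read, stood in 3 of 6 (OAS1, OAS3 and RIGI), against 3.12%. The other motif planned from the outset, the GAS core TTCNNNGAA, stood in 2 of 6 (OAS1 and TLR3), against 7.66%. No motif stood in all 6. OAS2, OASL and DHX58 were not in the table. The stretches that hold the GAAA motifs are printed below, 5′ to 3′ on the strand of the gene, with the motif in capitals (its complement, TTTC, where it lies on the opposite strand) and 15 bases on either side.
OAS1 (chr12:112906930-112906968, plus strand; 1-base spacing, 17 bases before the start): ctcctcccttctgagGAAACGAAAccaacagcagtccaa
RIGI (chr9:32526376-32526414, minus strand; 1-base spacing, 203 bases before the start): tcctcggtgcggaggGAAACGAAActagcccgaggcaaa
EIF2AK2 (chr2:37156962-37157001, minus strand; ISRE core, 6 bases before the start): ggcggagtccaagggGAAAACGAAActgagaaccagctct
TLR3 (chr4:186069137-186069176, plus strand; ISRE core on the opposite strand, 4 bases before the start): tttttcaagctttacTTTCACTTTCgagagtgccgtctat
OAS3 (chr12:112938311-112938486, plus strand; 1-base spacing overlapping an ISRE core, then a further ISRE core 12 bases before the start): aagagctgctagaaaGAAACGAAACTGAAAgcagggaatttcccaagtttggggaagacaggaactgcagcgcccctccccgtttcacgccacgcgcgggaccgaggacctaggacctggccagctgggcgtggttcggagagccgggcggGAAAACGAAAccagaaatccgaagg
IFIH1 (chr2:162318681-162318858, minus strand; a pair of overlapping ISRE cores on the opposite strand, then another 21 bases before the start): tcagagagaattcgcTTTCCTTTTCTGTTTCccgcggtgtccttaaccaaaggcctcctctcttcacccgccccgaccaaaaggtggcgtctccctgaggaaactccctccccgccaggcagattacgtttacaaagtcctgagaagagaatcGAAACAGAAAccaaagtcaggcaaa
OAS3 and IFIH1 thus carry 3 matches to the GAAA motifs each near the start, and the others carry 1 each. A match is a stretch of letters and was not tested as a binding site.

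In control cells the members stood at very different levels. Per kilobase of exon, the mean level in siControl was 14.2 CPM for EIF2AK2, 2.28 for DHX58, 0.463 for OAS3, 0.255 for OASL, 0.0988 for IFIH1, 0.0835 for TLR3, 0.0562 for RIGI, 0.0359 for OAS2 and 0.0204 for OAS1. PKR mRNA was thus the one abundant member, and the genes that differ most between the knockdowns are among the scarce ones. With the longest transcript as the length the order was the same, and the values for OAS1 and IFIH1 became 0.0417 and 0.140. From IFIH1 down to OAS2, the siControl libraries of neighbours in this order overlapped, while the other neighbours did not overlap. Below, a level is in CPM scaled by TMM (trimmed mean of M-values) factors, given for replicates 1, 2 and 3 in that order and as mean ± SD over the 3 libraries of a group, and a difference is an edgeR log2 fold change with its standard error (SE). Called means an adjusted p under 0.05.

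**Figure D1:**
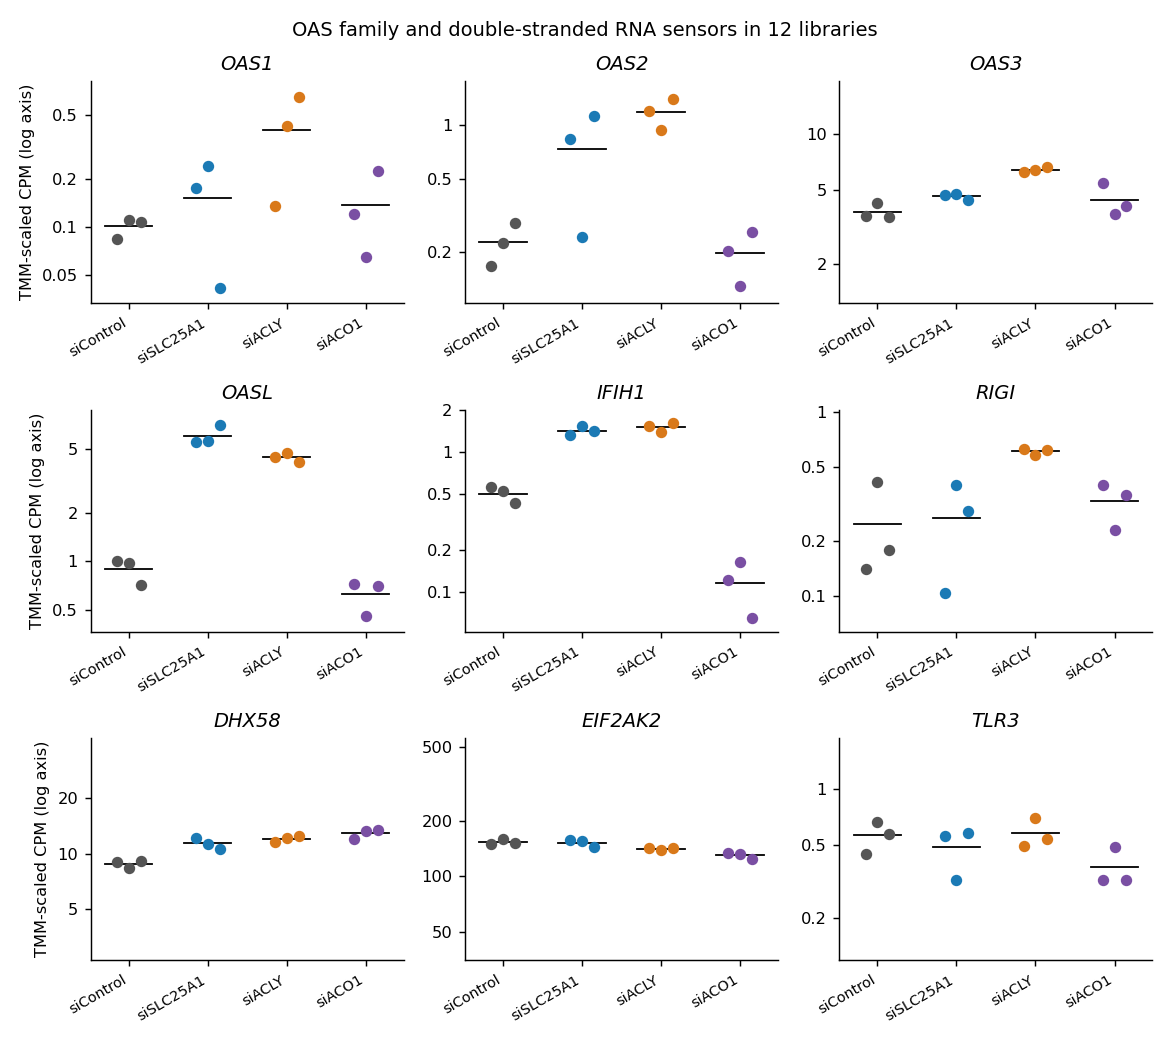
Level of each of the 9 members (TMM-scaled CPM, log axis, a scale of its own in each panel) in the 3 libraries of siControl, siSLC25A1, siACLY and siACO1. Points are libraries and bars are group means. OASL and IFIH1 are high in all 6 siSLC25A1 and siACLY libraries, and IFIH1 is lowest in the 3 siACO1 libraries.

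The OAS genes come before the helicases here because the set was chosen through them. OASL was at 1.00, 0.971 and 0.715 CPM in siControl (0.897 ± 0.159). It was at 5.51, 5.63 and 7.05 CPM in siSLC25A1 (6.06 ± 0.854) and at 4.47, 4.73 and 4.16 in siACLY (4.46 ± 0.285). In siACO1 it was at 0.724, 0.455 and 0.706 (0.629 ± 0.151). The 6 siSLC25A1 and siACLY libraries were thus all far above every siControl and siACO1 library, and the siACO1 libraries overlapped the siControl range at its lower end. The log2 fold change against siControl was 2.73 (SE 0.19), or 6.64-fold, in siSLC25A1 and 2.29 (SE 0.19), or 4.89-fold, in siACLY; these differences chose the set and carry no test.

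Because the choice named a rise in 2 of the knockdowns, OASL in siACO1 against siControl is a description as well. The log2 fold change of OASL there was -0.54 (SE 0.26), and it was -0.65 without siACO1 replicate 3. It was not called with or without that library. The 3 siSLC25A1 libraries lay above the 3 siACLY libraries, by 0.44 on the log2 scale (SE 0.15), which is again a description, since the set was chosen through OASL in these groups. That difference was 0.33 without siSLC25A1 replicate 3, and it was not called without that library or without siACLY replicate 1 or 3 (0.45 and 0.40).

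OAS2, which makes oligoadenylates on longer double-stranded RNA, had few reads. Its counts were 6, 8 and 8 in siControl, 24, 6 and 27 in siSLC25A1, 53, 24 and 36 in siACLY and 5, 4 and 8 in siACO1. As levels these were 0.168, 0.222 and 0.286 CPM in siControl, 0.837, 0.241 and 1.12 in siSLC25A1, 1.19, 0.931 and 1.39 in siACLY, and 0.201, 0.130 and 0.257 in siACO1. All 3 siACLY libraries were above every siControl library, but siSLC25A1 replicate 2 lay inside the siControl range. The mean was 0.225 ± 0.059 in siControl, 0.733 ± 0.448 in siSLC25A1, 1.17 ± 0.229 in siACLY and 0.196 ± 0.064 in siACO1. The log2 fold change, again the basis of the choice, was 1.71 (SE 0.46) in siSLC25A1 and 2.38 (SE 0.43) in siACLY. With 1 library left out in turn it ranged from 1.30 to 2.11 in siSLC25A1, and without siControl replicate 1 or siSLC25A1 replicate 3 the gene was not called there. Against siControl the difference in siACO1, a description for the same reason as for OASL, was -0.17 (SE 0.57), and it was -0.44 without siACO1 replicate 3. The difference between siSLC25A1 and siACLY was -0.67 (SE 0.37), again as a description.

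OAS3, the synthetase with the highest affinity for long double-stranded RNA, was at 3.63, 4.25 and 3.57 CPM in siControl. It was at 4.67, 4.79 and 4.44 in siSLC25A1, at 6.27, 6.44 and 6.63 in siACLY and at 5.43, 3.71 and 4.11 in siACO1. Every siACLY library was above every library of the other 3 groups, and the siSLC25A1 libraries stood just above the siControl range. The log2 fold change against siControl was 0.28 (SE 0.14) in siSLC25A1 and 0.75 (SE 0.13) in siACLY, the smallest among the OAS genes tested in each. Between the 2 knockdowns OAS3 was lower in siSLC25A1 by a log2 difference of -0.47 (SE 0.14, adjusted p = 0.00731), a call that held under all 19 alternatives. In siACO1 the OAS3 difference from siControl was 0.19 (SE 0.14, adjusted p = 0.304; 0.24 without siACO1 replicate 3), with replicate 1 above and replicates 2 and 3 inside the siControl range.

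OAS1, which responds to shorter duplexes, was close to the limit of detection. It had 3, 4 and 3 counts in siControl, 5, 6 and 1 in siSLC25A1, 6, 11 and 17 in siACLY and 3, 2 and 7 in siACO1. The 34 counts in siACLY, a mean of 0.406 ± 0.261 CPM, compare with 10 in siControl, a mean of 0.101 ± 0.015 CPM. The exact 95% Poisson intervals, which cover counting error only, were 0.245 to 0.494 CPM for the pooled siACLY libraries and 0.0480 to 0.184 for siControl. The 3 siACLY libraries lay above the siControl range, the lowest of them only slightly, and the siSLC25A1 and siACO1 libraries fell on both sides of it. With no filter on low counts the fitted log2 fold change was 1.90 (SE 0.69) in siACLY, 0.59 (SE 0.78) in siSLC25A1 and 0.44 (SE 0.78, adjusted p = 0.824) in siACO1.

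The make-up of the family therefore differed between groups. Summed over the 4 OAS genes, the level per kilobase of exon was 0.774 ± 0.073 CPM in siControl, 2.43 ± 0.256 in siSLC25A1, 2.32 ± 0.060 in siACLY and 0.773 ± 0.155 in siACO1. OAS3 gave 57.2 to 61.6% of that sum in the siControl libraries and 63.4 to 73.3% in siACO1. It gave 19.7 to 25.6% in siSLC25A1 and 33.1 to 34.3% in siACLY. OASL, the member without synthetase activity, gave 28.9 to 37.2% in siControl, 68.1 to 73.4% in siSLC25A1, 50.6 to 57.0% in siACLY and 21.1 to 25.6% in siACO1. The leading transcript was OAS3 in all 6 siControl and siACO1 libraries and OASL in all 6 siSLC25A1 and siACLY libraries. These shares follow from OASL, through which the set was chosen, and are a description.

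**Figure D2:**
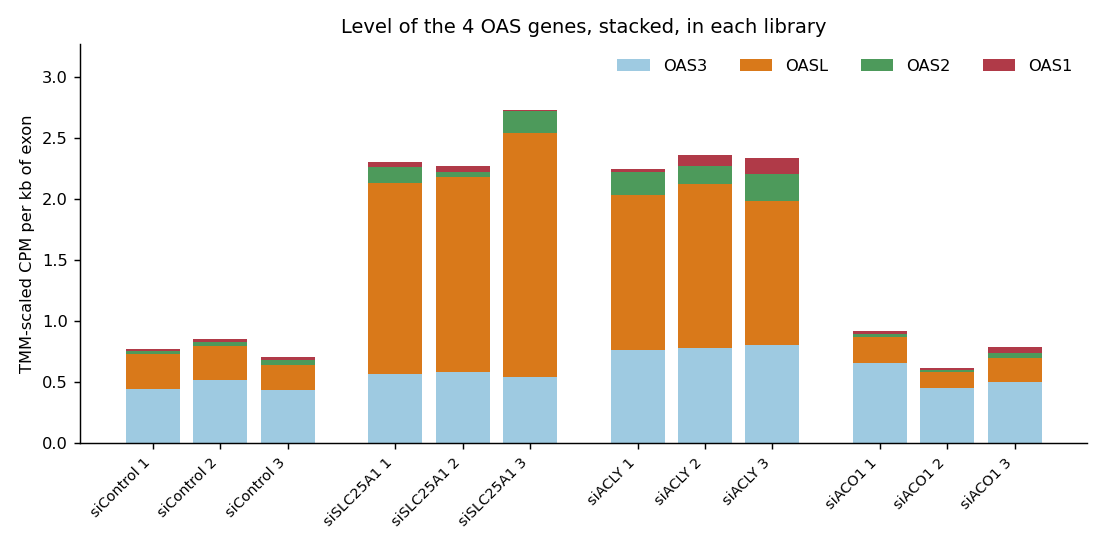
Level of OAS3, OASL, OAS2 and OAS1 stacked for each of the 12 libraries (TMM-scaled CPM per kilobase of exon, axis from 0). The sum is 0.704 to 0.849 in the siControl libraries and 0.612 to 0.921 in the siACO1 libraries. It is above 2.2 in every siSLC25A1 and siACLY library, and the OASL segment is the largest only in these groups.

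Among the helicases, IFIH1 (MDA5, the sensor of long double-stranded RNA) differed most between the groups. Its level was 0.558, 0.527 and 0.429 CPM in siControl and 0.121, 0.163 and 0.0642 in siACO1. It was 1.33, 1.53 and 1.409 in siSLC25A1 and 1.55, 1.40 and 1.62 in siACLY. The siACO1 libraries were thus all below, and the siSLC25A1 and siACLY libraries all above, the siControl range. The choice of the set, made through OASL and OAS2, did not rest on IFIH1 in siACO1. There IFIH1 fell by 2.10 on the log2 scale (SE 0.44, edgeR adjusted p = 0.0003), to 0.233 of the control level. The siACO1 libraries held only 3, 5 and 2 reads of the gene, and their pooled level of 10 reads had an exact 95% Poisson interval of 0.0553 to 0.212 CPM, below the 0.380 to 0.672 of siControl. Over 18 alternatives the change ranged from -2.46 to -1.80 and remained called in each, and it was -1.80 without siACO1 replicate 3 (adjusted p = 0.00347). In bulk RNA, fewer cells that hold a transcript and less of it in each cell cannot be told apart.

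Against siControl, IFIH1 was higher by 1.47 (SE 0.29) in siSLC25A1 and by 1.58 (SE 0.28) in siACLY on the log2 scale, which is given as a description. The 2 knockdowns did not differ detectably from each other (log2 difference -0.10, SE 0.25, adjusted p = 0.792). Because the gene was low in siACO1, its difference from that group was wider than from siControl: 3.57 (SE 0.38, adjusted p = 8.6e-09) for siSLC25A1 and 3.68 (SE 0.37, adjusted p = 3.21e-09) for siACLY. They were 3.27 and 3.37 without siACO1 replicate 3. These comparisons share the siACO1 libraries.

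RIGI (RIG-I, which recognises short duplexes with a 5′ triphosphate) had 3 to 28 counts in a library. It was at 0.140, 0.416 and 0.179 CPM in siControl, 0.105, 0.402 and 0.290 in siSLC25A1, 0.629, 0.582 and 0.617 in siACLY and 0.402, 0.228 and 0.353 in siACO1. The siACLY libraries were close together and above every other library, and the other 3 groups overlapped. Its log2 fold change against siControl was 0.06 (SE 0.54) in siSLC25A1 and 1.28 (SE 0.45) in siACLY, and the siACLY value was 1.93 without siControl replicate 2, the highest of the control libraries. With each library left out in turn the siSLC25A1 value ranged from -0.37 to 0.71 and the siACO1 value from 0.08 to 1.02. Between siSLC25A1 and siACLY the difference was -1.22 (SE 0.47, adjusted p = 0.0464). This call was at the edge of the threshold: over 18 alternatives the difference ranged from -1.65 to -0.81, and the call was lost in 9 of them. In siACO1 the difference from siControl was 0.38 (SE 0.50, adjusted p = 0.603; 0.30 without siACO1 replicate 3), while the neighbouring ACO1 gene, the target, was at -4.74.

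DHX58 (LGP2) was the member that rose in siACO1. It was at 8.96, 8.30 and 9.08 CPM in siControl, 12.1, 11.3 and 10.6 in siSLC25A1, 11.5, 12.1 and 12.5 in siACLY and 12.0, 13.2 and 13.5 in siACO1. All 9 knockdown libraries were above the siControl range. In siACO1 the log2 fold change was 0.56 (SE 0.09, edgeR adjusted p = 1.04e-05), a call that held under all 19 alternatives, and it was 0.53 without siACO1 replicate 3. The corresponding values in siSLC25A1 and siACLY were 0.37 (SE 0.09) and 0.45 (SE 0.09). The 3 knockdowns were not told apart from each other: siSLC25A1 differed from siACLY by -0.08 (adjusted p = 0.523) and from siACO1 by -0.19 (adjusted p = 0.0962), and siACLY differed from siACO1 by -0.10 (adjusted p = 0.36). Of these, only the siSLC25A1 to siACO1 difference was called under any alternative, with library totals in place of scaling factors (-0.23, adjusted p = 0.0372). The nearest gene, KAT2A, which encodes a histone acetyltransferase and lies 0.375 kb away, was called lower in siSLC25A1 and siACLY (log2 fold changes of -0.11 and -0.24). In siACO1 KAT2A was at -0.06 and was not called (edgeR adjusted p = 0.222).

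EIF2AK2 (PKR) was the one member with at least 3313 reads in each library. Its level was 149.9, 158.2 and 150.6 CPM in siControl, 156.1, 155.4 and 143.1 in siSLC25A1, 141.8, 138.5 and 142.4 in siACLY and 133.3, 132.1 and 124.1 in siACO1. The siACO1 libraries were below all others and the siACLY libraries below the siControl range, whereas siSLC25A1 overlapped siControl. EIF2AK2 fell in siACO1 by 0.24 on the log2 scale (SE 0.04, edgeR adjusted p = 7.35e-05), or to 0.849 of the control level, and by 0.21 without siACO1 replicate 3. The difference from siControl was -0.01 (SE 0.04) in siSLC25A1 and -0.12 (SE 0.04) in siACLY. The gene was higher in siSLC25A1 than in siACO1 by 0.22 (adjusted p = 0.000131). It was also higher in siACLY than in siACO1 by 0.12 (adjusted p = 0.0303), a call that was lost in 4 of 19 alternatives (no filter on low counts, and without siACLY replicate 1, siACLY replicate 3 or siACO1 replicate 3, where it was 0.08). Between siSLC25A1 and siACLY the difference was 0.11 (adjusted p = 0.0637), and it was called in 4 of 19 alternatives.

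TLR3, the endosomal receptor, was at 0.447, 0.666 and 0.572 CPM in siControl, 0.558, 0.322 and 0.580 in siSLC25A1, 0.495, 0.698 and 0.540 in siACLY and 0.322, 0.488 and 0.321 in siACO1. Each knockdown overlapped siControl. The log2 fold change was -0.20 (SE 0.38) in siSLC25A1, 0.02 (SE 0.36) in siACLY and -0.56 (SE 0.39, adjusted p = 0.273; -0.45 without siACO1 replicate 3) in siACO1, so that at 8 to 24 counts in a library no difference was detectable.

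**Figure D3:**
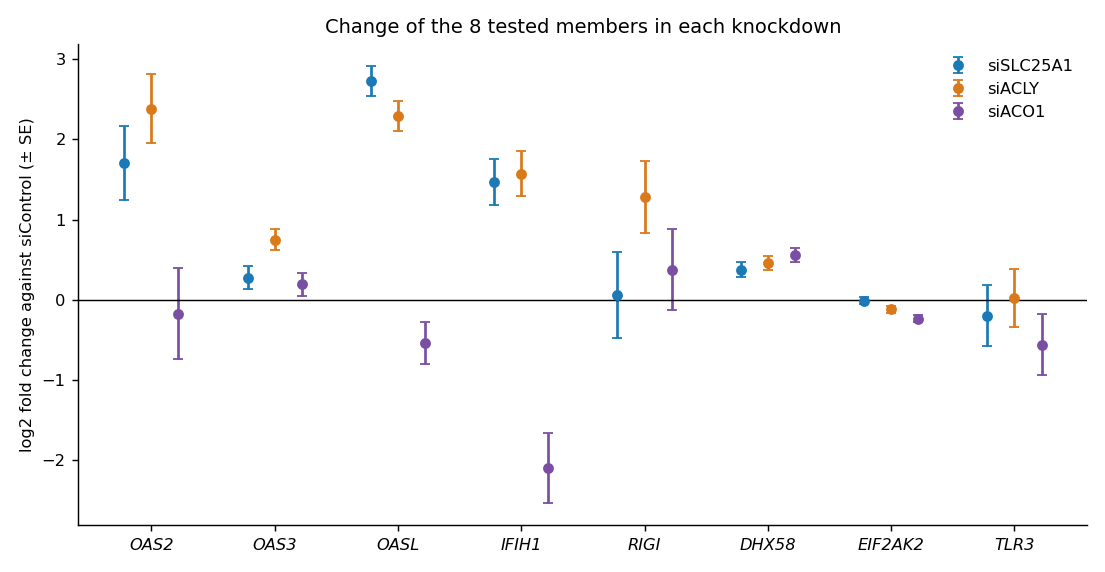
Log2 fold change of the 8 tested members against siControl in siSLC25A1, siACLY and siACO1 (edgeR, 3 libraries per group); bars are ± 1 SE. OASL, OAS2 and IFIH1 lie above 1 in siSLC25A1 and siACLY, IFIH1 lies at -2.10 in siACO1, and DHX58 is above 0 in all 3.

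Counted over the 8 tested members, 4 were called higher in siSLC25A1 than in siControl (OAS2, OASL, IFIH1 and DHX58), where 10.3% of all tested genes were called higher. None was called lower by edgeR, against 9.27% of all genes, and none had an unadjusted p under 0.05 in that direction or was called lower by DESeq2. In siACLY 6 were called higher (OAS2, OAS3, OASL, IFIH1, RIGI and DHX58) and 1 lower (EIF2AK2), against 18.4% and 18.3% of all genes. The RIGI call was lost in 5 of 18 alternatives and the EIF2AK2 call in 7 of 19. Since these contrasts chose the set, nothing is read from those counts. In siACO1 1 was called higher (DHX58) and 2 lower (IFIH1 and EIF2AK2), against 17.8% and 19.3% of all genes. With 3 of 8 members called beside 37.1% of all genes, the set as a whole did not stand out in siACO1, and the result there is about those genes singly. The 8 include OASL and OAS2, through which the set was chosen.

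Set directly against each other, siSLC25A1 and siACLY differed in 3 of 8 members, OASL (a description) being higher and OAS3 and RIGI lower in siSLC25A1, against 17.5% and 16.3% of all genes in these directions. Without siACLY replicate 3 only OAS3 of the 3 remained called. Against siACO1, siSLC25A1 was higher in OAS2, OASL, IFIH1 and EIF2AK2 (21.8% of all genes higher, 20.3% lower). siACLY was higher than siACO1 in the same 4 and in OAS3 (21.4% higher, 20.7% lower). No member was called lower in either comparison by edgeR or DESeq2; at an unadjusted p under 0.05 there was 1, DHX58 in siSLC25A1. For OASL and OAS2 these comparisons are a description, with log2 differences from siACO1 of 3.27 (SE 0.21) and 1.88 (SE 0.49) in siSLC25A1 and 2.83 (SE 0.21) and 2.55 (SE 0.45) in siACLY. OAS3 was higher in siACLY than in siACO1 by 0.56 (SE 0.13, adjusted p = 0.0013), while siSLC25A1 and siACO1 differed by 0.08 (adjusted p = 0.685). Without siACO1 replicate 3 these OAS3 values were 0.51 and 0.04. The numbers of members called were then again 5 and 4, but over 9 tested members, with OAS1 included. The 5 called between siACLY and siACO1 were not the same genes, since EIF2AK2 was no longer called there (0.08, edgeR adjusted p = 0.107).

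**Figure D4:**
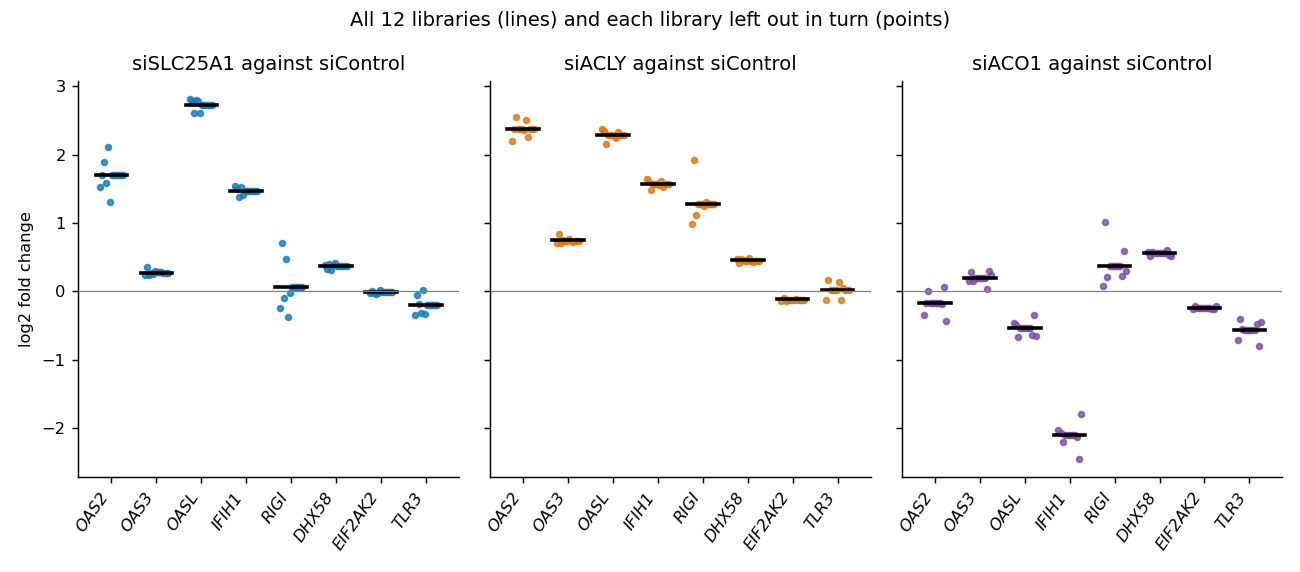
Log2 fold change of the 8 tested members against siControl with all 12 libraries (horizontal bars) and with each of the 12 left out in turn (points), 1 panel per knockdown. DHX58 and EIF2AK2 stay within narrow ranges, OAS2 in siSLC25A1 ranges from 1.30 to 2.11, IFIH1 in siACO1 from -2.46 to -1.80, and RIGI in siACLY from 0.98 to 1.93.

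Genes next to some members on the chromosome were also read. In the OAS cluster the flanking genes RPH3A and DTX1 had no count in any group, and PTPN11, which lies beyond RPH3A, was at log2 fold changes of 0.06, -0.19 and -0.24 in siSLC25A1, siACLY and siACO1. P2RX4, near OASL, was at -0.16 in siSLC25A1 and 0.42 in siACLY, where OASL was at 2.73 and 2.29. GCA, 0.137 kb from IFIH1, was at 0.028 CPM or less in every group and was not tested.

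Genes that act before, beside and after the sensors were followed in 9 lists of 172 genes, of which 131 were tested. Among all 16197 genes 19.6% were called in siSLC25A1, 36.7% in siACLY and 37.1% in siACO1, and the median log2 fold change was -0.004, 0.008 and 0.006. Of the 20 adaptors and kinases that act after RNA sensing, 19 were tested: 2 rose and 3 fell in siSLC25A1, 2 rose and 7 fell in siACLY, and none rose and 8 fell in siACO1 (1, IKBKE, was higher at an unadjusted p under 0.05 and none by DESeq2), with medians of -0.004, -0.041 and -0.132. TBKBP1, a scaffold of the kinase TBK1, fell in all 3 knockdowns, by 0.31, 0.36 and 0.38 on the log2 scale (adjusted p = 0.000643, 4.1e-05 and 2.52e-05). TANK rose by 0.29 in siSLC25A1 and 0.19 in siACLY, TRAF2 fell by 0.38 in siACLY, and IRF5 fell by 0.64 in siACO1. AZI2 (0.31, 0.37 and -0.28 in siSLC25A1, siACLY and siACO1) and FADD (-0.25 in siACLY and -0.28 in siACO1) were also called but share exon sequence with other genes, so that their values are uncertain. MAVS, the adaptor of RIG-I and MDA5, was at 0.02 in siSLC25A1, fell by 0.21 in siACLY (adjusted p = 0.000434) and was at -0.07 in siACO1. IRF3 fell by 0.26 in siSLC25A1 and by 0.17 in siACLY and was at 0.07 in siACO1, and IRF7 was listed at 0 in all libraries.

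Among the cofactors and brakes of RIG-I and MDA5, 17 of 22 were tested, and 3 rose and 2 fell in siSLC25A1, 5 rose and 5 fell in siACLY and 7 fell in siACO1, where none rose (none at an unadjusted p under 0.05 or by DESeq2 either). The medians were -0.018, -0.011 and -0.089. TRIM65, a ubiquitin ligase for MDA5, fell in all 3 by 0.19, 0.52 and 0.47. TRIM25, a ubiquitin ligase of the RIG-I pathway, also fell in all 3, by 0.18, 0.23 and 0.66 (adjusted p = 0.00602, 0.000227 and 3.2e-12). The deubiquitinase CYLD, a brake on RIG-I, rose by 0.40 in siSLC25A1 and 0.31 in siACLY and fell by 0.45 in siACO1. RNF125, a ligase that marks RIG-I for degradation, rose by 0.21 in siSLC25A1 and 0.26 in siACLY and fell by 0.24 in siACO1, and the helicase DHX15 fell by 0.32 in siACLY.

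Downstream of OAS1, OAS2 and OAS3, the list of genes that act on or through the oligoadenylate had 5 genes, all tested. None was called in siSLC25A1 in either direction (none at an unadjusted p under 0.05 or by DESeq2), 1 fell in siACLY and 3 fell in siACO1, with medians of -0.013, -0.044 and -0.162. PDE12, a phosphodiesterase that degrades oligoadenylates, fell by 0.22 in siACLY and 0.30 in siACO1, and ABCE1, a ribosome recycling factor, fell by 0.16 in siACO1, as did CNP by 0.13.

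Downstream of EIF2AK2, all 13 genes of the PKR arm were tested. Of these 4 rose and 1 fell in siSLC25A1, 3 rose and 2 fell in siACLY, and 1 rose and 7 fell in siACO1, with medians of 0.036, 0.046 and -0.171. PPP1R15A, the stress-induced subunit that directs dephosphorylation of eIF2α, rose by 0.52 in siSLC25A1 and by 0.77 in siACLY (adjusted p = 2.8e-08 and 2.84e-12). DNAJC3, an inhibitor of PKR, rose by 0.39 in siSLC25A1. DDIT3 was at 0.63 and 0.83 in siSLC25A1 and siACLY, but shares exon sequence with another gene. ATF4, the transcription factor translated after phosphorylation of eIF2α, rose by 0.36 in siSLC25A1 and 0.18 in siACLY and fell by 0.46 in siACO1. The eIF2 subunit gene EIF2S3 fell in all 3, by 0.15, 0.18 and 0.39, and EIF2S2 fell in siACO1 by 0.32.

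Of the genes that edit, unwind or degrade cellular double-stranded RNA, 21 of 22 were tested, and 2 rose and 1 fell in siSLC25A1, 2 rose and 3 fell in siACLY and 4 rose and 8 fell in siACO1, with medians of 0.002, -0.012 and -0.056. ADAR, whose loss lets cellular duplexes reach MDA5, was at 0.01, 0.01 and -0.06 and was not called. PNPT1, the mitochondrial polynucleotide phosphorylase that limits mitochondrial double-stranded RNA, fell by 0.26 in siACLY and 0.24 in siACO1. ADARB1 and TASOR rose by 0.21 and 0.14 in siSLC25A1 and fell by 0.13 and 0.21 in siACO1, STAU1 fell by 0.11 in siSLC25A1, and DUS2 rose by 0.18 in siACLY. SAMHD1 fell by 0.25 in siACLY and rose by 0.27 in siACO1, where RNASEH2B fell by 0.28 and RNASEH2C, which shares exon sequence with another gene, was at 0.35.

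Other nucleic acid sensors gave 12 tested genes of 18, of which 2 rose and 3 fell in siSLC25A1, 3 rose and 3 fell in siACLY and 3 rose and 4 fell in siACO1, with medians of 0.063, 0.132 and 0.080. DDX60, a helicase described as a cofactor of RIG-I, rose by 1.00 in siSLC25A1 and 1.19 in siACLY (adjusted p = 0.000317 and 8.77e-06) and fell by 0.56 in siACO1 (adjusted p = 0.048), the same order of groups as IFIH1. CGAS, the sensor of cytosolic DNA, fell by 0.41 in siACLY and by 0.49 in siACO1. UNC93B1, which carries TLR3 and other endosomal receptors to their compartment, fell in all 3 knockdowns, by 0.40, 0.53 and 0.40. SIDT2 fell by 0.45 in siSLC25A1 and rose by 0.18 in siACLY and 0.38 in siACO1, MB21D2 fell by 0.41 in siSLC25A1, and TLR7 rose by 1.10 in siACO1 (SE 0.36).

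All 9 interferon ligand genes in the lists, IFNB1 and IFNL1 among them, had no count in any of the 12 libraries, against a limit of 3 counts, or 0.0674 to 0.124 CPM, that a count of 0 allows. Some genes that every cell uses, such as DHX16 and RNF5, were also listed at 0, so that a 0 here says only what the table lists. The 6 receptors were tested, and 1 rose and 1 fell in siSLC25A1, 2 rose in siACLY and 2 rose in siACO1, with medians of 0.027, 0.250 and 0.053; none fell in the last 2 (none at an unadjusted p under 0.05 or by DESeq2). IFNAR1 rose in all 3 knockdowns by 0.14, 0.11 and 0.17. IFNAR2, whose exons overlap another gene, was at 0.02, 0.23 and 0.44, IFNGR2 fell by 0.61 in siSLC25A1 and IFNGR1 rose by 0.27 in siACLY.

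The factors that carry the interferon signal gave 15 tested genes of 17, of which 4 rose and 2 fell in siSLC25A1, 4 rose and 4 fell in siACLY and 5 rose and 2 fell in siACO1, with medians of 0.011, 0.056 and 0.087. STAT2 was at -0.05 in siSLC25A1 and rose by 0.22 in siACLY and 0.54 in siACO1 (adjusted p = 5.68e-08), and IRF9 was listed at 0 throughout. ISG15 rose in all 3 by 0.73, 0.44 and 0.57, and SOCS1, a feedback inhibitor, by 0.81, 0.53 and 0.66. IRF1, which shares exon sequence with another gene, was at -0.93 and -0.73 in siSLC25A1 and siACLY.

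Classical interferon-stimulated genes outside the set gave 23 tested genes of 40. Of these 4 rose and 5 fell in siSLC25A1, 11 rose and 4 fell in siACLY and 11 rose and 1 fell in siACO1, with medians of 0.051, 0.378 and 0.203. The list was written with earlier results of these libraries known and is no independent evidence of a direction. IFIT3 rose by 1.24 in siSLC25A1 and 1.26 in siACLY and was at -0.19 in siACO1. HERC5 rose by 0.90 in siSLC25A1 and 0.63 in siACLY and fell by 0.84 in siACO1. UBE2L6 rose by 1.52 in siACLY and 1.33 in siACO1 and was at -0.04 in siSLC25A1, and IFI6 likewise rose by 1.02 and 1.22 and was at -0.03. HERC6 rose by 0.65 in siSLC25A1 and 1.39 in siACLY and was at -0.11 in siACO1. LAMP3 rose by 1.36 in siACLY and was at 0.43 and -0.87 in siSLC25A1 and siACO1, uncalled. IFITM1, with overlapping exons, was at -0.95, -0.65 and 0.72 in siSLC25A1, siACLY and siACO1, each called.

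**Figure D5:**
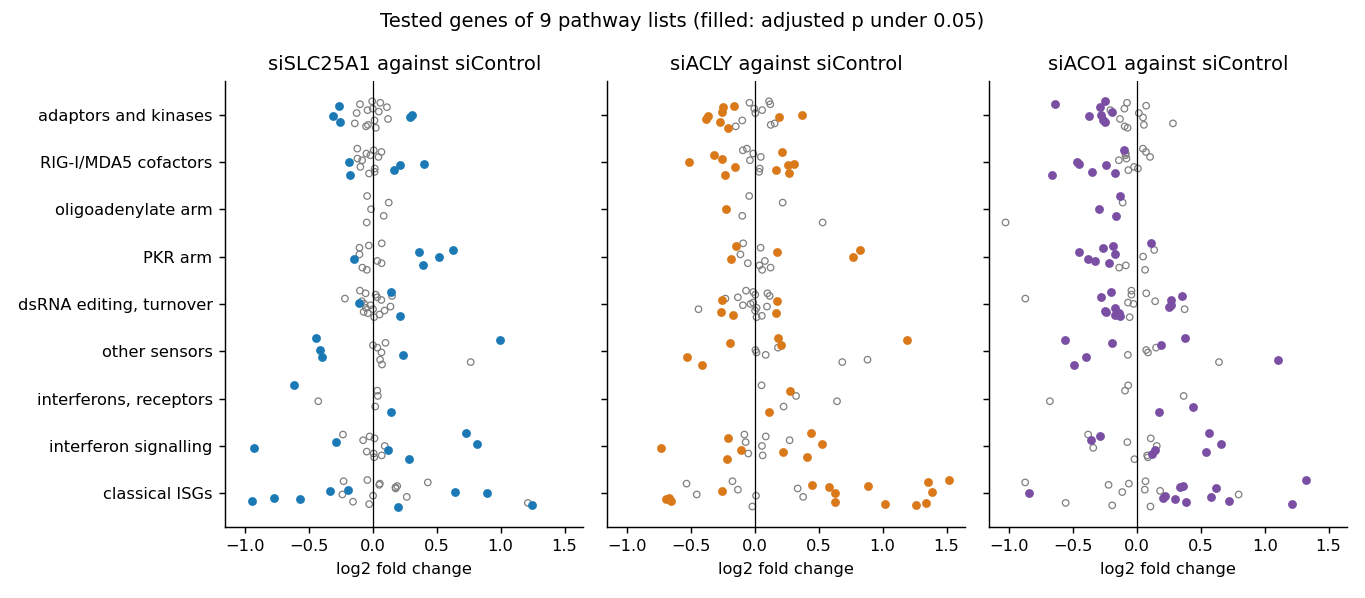
Log2 fold change against siControl of the 131 tested genes of the 9 lists outside the set, 1 panel per knockdown and 1 row per list; filled points had an edgeR adjusted p under 0.05 and open points did not. Most points lie between -0.5 and 0.5, and those above 1 are mostly classical interferon-stimulated genes.

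Genes of most similar pattern were sought among the 255 tested genes that reached 1 CPM in the group where they stood highest and had a siACLY level at least 1 log2 unit above siControl, by the root-mean-square difference of log2 CPM, taken relative to each gene's own siControl mean, over the 12 libraries. Within that pool the nearest to OASL were CDKN1A (0.728), HBEGF (0.792), ROBO4 (0.812), ARHGAP31 (0.837) and KRT16 (0.837). For OAS2 they were MYBPH (0.452), ROBO4 (0.504), GAD1 (0.569), WNT16 (0.569) and STXBP5-AS1 (0.600). For IFIH1 they were SLC37A2 (0.507), EFNB2 (0.542), EMILIN2 (0.635), ALOXE3 (0.649) and KRT16 (0.671). ROBO4 and KRT16 stood in 2 of the 3 lists each. CDKN1A, the cell cycle inhibitor nearest to OASL, was at 1.27, 3.91, 3.60 and 1.03 CPM in siControl, siSLC25A1, siACLY and siACO1, and its log2 fold changes of 1.63 and 1.52 in siSLC25A1 and siACLY were smaller than the 2.73 and 2.29 of OASL.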

How the data were processed

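Poly(A) RNA libraries were sequenced, and the authors deposited a table of raw read counts per Ensembl gene for 12 libraries. The submitters' processing notes name CASAVA, FastQC, Trim Galore, STAR 2.7.0e and DESeq2, and the builds GRCm39 and GRCh38, with no role stated; the counting tool, annotation release and strand setting are not given in the sources used here. Symbols were found for 62700 of 70116 identifiers.

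Genes were filtered with filterByExpr, scaled by TMM and tested with edgeR 4.0.16 (R 4.3.3) by the quasi-likelihood F test, two-sided, in 1 fit of 4 groups over 12 libraries with 8 residual degrees of freedom. P-values were adjusted by Benjamini-Hochberg over 16197 genes. DESeq2 1.42.0 was an alternative, beside other scalings, filters and samples left out. The procedure was also run on simulated counts in which a small part of the genes was changed, in siSLC25A1 alone. That run does not cover differences as widespread as those between these groups. Positions and exon lengths are those of GENCODE on GRCh38; exon overlap of at least 20% marked a value as uncertain. In each list and comparison with siControl the 3 called genes with the largest change were named, beside a set of named genes given whatever their values; some of these are not reported here. The members and lists were chosen with earlier results of these data known. Depth limits OAS1, OAS2, IFIH1, RIGI and TLR3, with 1 to 69 counts in a library.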

Additional observations from a re-analysis of the deposited data

How the results depend on the processing

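Each result was recomputed under other scalings, filters and tools and with each library left out. Of the recomputed counts of called genes, 337 stayed within 1.5 times the value first given and 5 did not. With at least 10 counts required in every library only 4 members were tested, and the number called fell to 2 in siSLC25A1 and 3 in siACLY against siControl, and to 2 in siSLC25A1 and 3 in siACLY against siACO1. Leaving out a library gave 1 to 4 members called between siSLC25A1 and siACLY. Some differences near 0 changed sign as 1 library was left out: that of OAS2 in siACO1 against siControl ranged from -0.44 (without siACO1 replicate 3) to 0.061 (without siACO1 replicate 2; 0.005 without siControl replicate 3), that of TLR3 in siSLC25A1 against siACLY from -0.346 to 0.005 (without siSLC25A1 replicate 2), that of OAS3 in siSLC25A1 against siACO1 from -0.029 (without siACO1 replicate 2) to 0.246, and that of RIGI in the same comparison from -0.747 to 0.097 (without siSLC25A1 replicate 1). Against siControl, RIGI in siSLC25A1 ranged from -0.374 to 0.709, EIF2AK2 in siSLC25A1 from -0.035 to 0.026, and TLR3 from -0.347 to 0.019 in siSLC25A1 and from -0.132 to 0.170 in siACLY. None of these was called; the cause was not tested. With library totals in place of scaling factors the genes called higher and lower in siACLY were 3587 and 2292, against 2977 and 2967, and in siACO1 3582 and 2442, against 2876 and 3132; between siSLC25A1 and siACLY they were 2233 and 3218, against 2837 and 2635.

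The replicate numbers are shared between groups, but same-numbered libraries did not deviate together (correlations of -0.034 to 0.067). With the replicate number as a block, 4, 7 and 3 members were called in siSLC25A1, siACLY and siACO1 against siControl, the same as without it, and 3270, 6038 and 6093 genes. Depth limits OAS1, OAS2, RIGI and IFIH1, whose siACO1 level rests on 10 reads.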
